A study of Homo sapiens with 6 samples.

Results

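The transcripts of 7 UGT2B genes (UGT2B4, UGT2B7, UGT2B10, UGT2B11, UGT2B15, UGT2B17 and UGT2B28) and of UGDH were followed in the prostate cancer cell line C4-2 after androgen treatment. These 8 genes were taken by symbol from the count files, which list 55765 gene symbols, and all 8 had at least 1 count. C4-2 is a castration-resistant line derived from the androgen-sensitive line LNCaP through xenografts in castrated mice. Cultures received either the solvent DMSO or a supraphysiological androgen level (SAL), which here was 1 nM of the synthetic androgen R1881 (methyltrienolone), for 72 h. Total RNA of 3 cultures per treatment was sequenced, all of 1 cell line, and replicates 1 to 3 of DMSO and SAL were paired by their number. The samples are bulk RNA, so fewer cells with a transcript and less of it per cell cannot be told apart.

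UDP-glucuronosyltransferases of the UGT2B family are enzymes of the endoplasmic reticulum that attach glucuronic acid to small lipophilic molecules, which makes these soluble enough for export. UGT2B15 and UGT2B17 conjugate dihydrotestosterone and its metabolites and are the main enzymes that inactivate androgens in prostate cells, and UGT2B28 also accepts androgens. UGT2B7 acts on many drugs and steroids, UGT2B4 on bile acids, and UGT2B10 on amines such as nicotine. UGDH oxidizes UDP-glucose to UDP-glucuronic acid, the donor of the sugar in all of these reactions.

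In brief, UGT2B15 and UGT2B17 fell after SAL, UGT2B11 rose, and UGT2B28 went from 4 summed counts in DMSO to 77 in SAL. The calls of UGT2B15, UGT2B17 and UGT2B11 were lost when the pairing by replicate number was left unused. That of UGT2B11 was also lost in DESeq2. UGDH, with the highest level of the 8, was not called. UGT2B4, UGT2B7 and UGT2B10 were close to 0 in most libraries.

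The DMSO libraries held 7864471 to 11317210 counts on genes and the SAL libraries 9921828 to 12532355. Of these, 11.9% to 27.8% fell on rRNA genes and were removed, so that 6931042 to 8186483 counts were left for DMSO and 8112598 to 9776990 for SAL. Levels are CPM, the remaining counts as a share of the library size after scaling by the trimmed mean of M values (TMM). A change is the log2 fold change of SAL against DMSO in the quasi-likelihood test of edgeR with the replicate number as a block, and a gene was called at an adjusted p under 0.05. Of 16835 genes tested, 3508 (20.8%) were called, 1931 higher (11.5%) and 1577 lower (9.37%) in SAL, and the median log2 fold change of all tested genes was -0.00. All 5 androgen-induced controls were called higher, among them KLK3, KLK2, TMPRSS2 and FKBP5 with log2 fold changes of 1.21, 0.77, 2.07 and 3.36. All 8 luminal prostate markers passed the filter on low counts and 5 of them were called higher, including KRT8 and KRT18 (summed CPM 2668 to 4894 in DMSO and 4699 to 9157 in SAL), whereas none of 3 basal markers did (summed CPM 0.134 to 0.372 in DMSO and 0.128 to 0.329 in SAL, with KRT5 at 0 in every library). None of 3 neuroendocrine markers was called (summed CPM 3.96 to 12.2 in DMSO and 4.48 to 8.11 in SAL). Of 4 stroma markers, 2 were tested (summed CPM of the 4 markers 3.35 to 11.3 in DMSO and 13.1 to 16.9 in SAL). Of these 2, ACTA2 rose (log2 fold change 2.61, edgeR adjusted p = 6.63e-06) and the other was not called. COL1A2 was at 0 in every library. The part of the luminal and stroma markers in the results below was not tested. None of 5 hepatocyte markers, a cell type rich in UGT2B enzymes, could be tested (summed CPM 1.78 to 2.23 in DMSO and 0.616 to 1.79 in SAL, with APOB at 0).

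The UGT2B genes lie in 1 cluster on chromosome 4. In GRCh37, the assembly of hg19, UGT2B17 (69402891 to 69442131, minus strand) and UGT2B15 (69512315 to 69536370, minus strand) are neighbors, followed by UGT2B10 (69681712 to 69697741, plus strand) and UGT2B7 (69917081 to 69978705, plus strand). Farther along come UGT2B11 (70065669 to 70080466, minus strand), UGT2B28 (70146193 to 70160768, plus strand) and UGT2B4 (70345883 to 70391732, minus strand). UGDH lies elsewhere on the same chromosome (39500375 to 39529931, minus strand). Exons of UGDH overlap those of the antisense gene UGDH-AS1, and exons of UGT2B11 overlap those of ENSG00000250696. Since the reads were counted without regard to strand, reads in these overlaps cannot be assigned to 1 gene.

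UGT2B15 and UGT2B17, with fewer counts in SAL, and UGT2B11 and UGT2B28, with more, are also the most similar pairs in sequence. The longest transcripts of UGT2B15 and UGT2B17 were 96.4% identical over their aligned bases, and those of UGT2B11 and UGT2B28 were 96.3% identical. Between the pairs, identity was 80.4% to 82.8%. Such similarity bears on the counts, because reads that mapped to more than 1 place were not counted. Of all windows of 70 bases in its longest transcript, UGT2B15 shared 19.3% with another gene and UGT2B17 16.5%, in both cases with each other alone. For UGT2B11 the share was 30.3% and for UGT2B28 17.8%, with each other, with UGT2B10, with UGT2B pseudogenes and with ENSG00000250696. No window of this length was common to UGT2B15 or UGT2B17 and UGT2B11 or UGT2B28. With windows of 50 bases the shares were 27.1% for UGT2B15, 23.3% for UGT2B17, 47.8% for UGT2B11 and 35.2% for UGT2B28, and UGT2B17 and UGT2B11 had 3 windows in common. Trimmed reads can be shorter still, for which no share was computed. The part of misassigned reads within each pair was not tested.

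**Figure D1:**
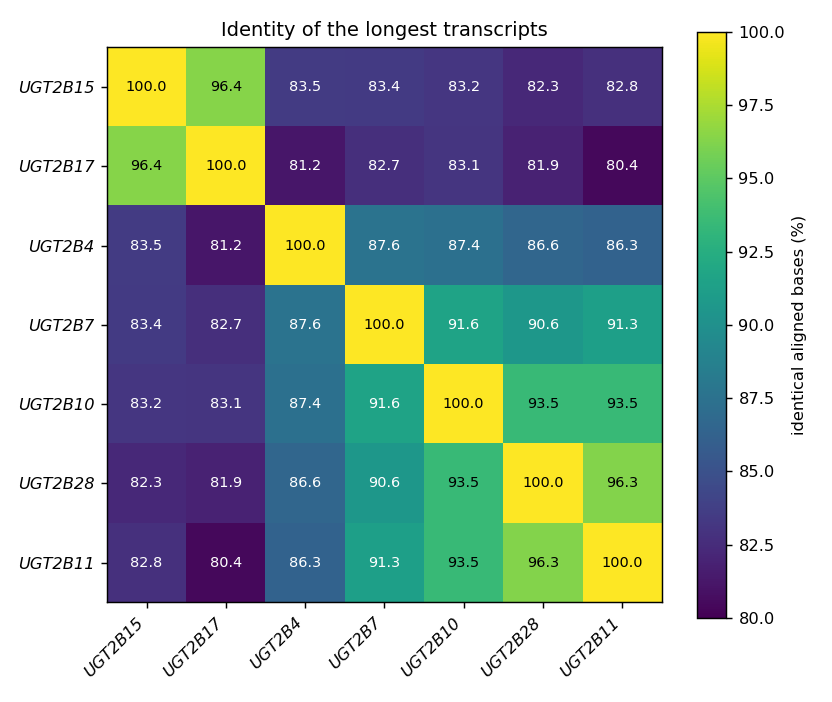
Identity of the longest transcripts of the 7 UGT2B genes in percent of aligned bases, as numbers and color. The pairs UGT2B15 and UGT2B17 (96.4%) and UGT2B11 and UGT2B28 (96.3%) stand out, and identity between these pairs is 80.4% to 82.8%.

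Promoters are shown for UGT2B15 and UGT2B11, because these were called in opposite directions. The RefSeq sequences in GRCh38.p14 cover 250 bases before and 50 bases after the start of the gene, and 5 of the 8 genes matched (UGDH, UGT2B15, UGT2B10, UGT2B7 and UGT2B11), so that UGT2B17, UGT2B28 and UGT2B4 are named only. The window of UGT2B15 is chr4:68670603-68670902 and that of UGT2B11 is chr4:69214699-69214998, both on the minus strand and printed 5′ to 3′ on that strand. Both are poor in G and C, at 30.3% and 33% of bases. Capitals in UGT2B15 mark a match to the forkhead core TGTTTAC, read on the opposite strand as GTAAACA and 183 bases upstream of the start, and a match to the hormone response hexamer AGAACA, 172 bases upstream. Capitals in UGT2B11 mark the bases aligned to these.
UGT2B15: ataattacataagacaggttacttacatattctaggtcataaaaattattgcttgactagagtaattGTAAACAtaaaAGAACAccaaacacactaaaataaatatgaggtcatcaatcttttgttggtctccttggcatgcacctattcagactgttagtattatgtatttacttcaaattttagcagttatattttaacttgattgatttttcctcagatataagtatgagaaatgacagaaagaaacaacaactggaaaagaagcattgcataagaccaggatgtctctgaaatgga
UGT2B11: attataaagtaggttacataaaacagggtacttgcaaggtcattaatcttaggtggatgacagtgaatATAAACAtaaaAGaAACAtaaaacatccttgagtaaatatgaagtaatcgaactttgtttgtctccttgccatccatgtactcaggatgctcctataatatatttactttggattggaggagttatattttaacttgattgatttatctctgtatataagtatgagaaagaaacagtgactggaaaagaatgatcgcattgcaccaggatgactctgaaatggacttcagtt
The 2 windows were 74.2% identical. At the forkhead core, UGT2B11 had the base of UGT2B15 at 6 of 7 positions. At the hexamer it had all 6 bases, but with 1 inserted base between them, so the motif itself was not matched. UGT2B10, which was hardly detected, had the same result as UGT2B11 at both motifs. The window of UGT2B7, also hardly detected, matched neither motif. Both strands were searched and the motifs do not overlap each other. Among 35116 promoters of the same length, 14.8% held AGAACA and 3.42% held TGTTTAC, and among the 1635 with at most 35% G and C these shares were 27.6% and 8.01%. These matches describe the letters of the windows and were not set against any binding data.

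Of the 8 genes, 4 passed the filter on low counts, which asks for 10 counts scaled to the libraries (1.23 CPM) in at least 3 libraries. Of these 4, 2 were called lower and 1 was called higher, beside 9.37% and 11.5% of all tested genes. This count is a description, since UGT2B17 passed the filter through its DMSO libraries alone.

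UGT2B15 had the most counts of the UGT2B genes in DMSO replicates 1 and 3, though not in replicate 2, with 103, 10 and 61 counts in DMSO replicates 1 to 3 and 19, 8 and 14 counts in SAL. In CPM this was 12.8, 1.37 and 8.15 in DMSO and 2.43, 0.877 and 1.72 in SAL. Both groups overlapped, because DMSO replicate 2 was far below the other DMSO libraries, but SAL was lower within each of the 3 pairs (log2 differences of -2.28, -0.52 and -2.09). The mean level went from 7.43 ± 5.73 CPM to 1.68 ± 0.779 CPM (SD, n = 3). UGT2B15 thus fell 4.1-fold in the fit (log2 fold change -2.03, SE 0.32, 95% interval -2.71 to -1.36, edgeR adjusted p = 0.00025). Without the replicate block the fit gave -2.15 with an adjusted p of 0.841.

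UGT2B17, its neighbor and closest relative, had 42, 12 and 28 counts in DMSO and 3, 4 and 6 counts in SAL. The levels were 5.2, 1.64 and 3.74 CPM in DMSO and 0.384, 0.439 and 0.739 CPM in SAL. Every SAL library was below every DMSO library. The mean went from 3.53 ± 1.79 CPM to 0.521 ± 0.191 CPM (SD, n = 3), and UGT2B17 fell 6.35-fold (log2 fold change -2.67, SE 0.44, 95% interval -3.61 to -1.72, edgeR adjusted p = 0.000456). UGT2B17 passed the filter through its 3 DMSO libraries alone, so a fall was favored by the way it entered the test. Without the replicate block the value was -2.73 with an adjusted p of 0.231.

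UGT2B11, which resembles UGT2B10 and UGT2B28 and for which androgen conjugation is less well established, had 5, 2 and 9 counts in DMSO and 20, 3 and 32 counts in SAL. This was 0.619, 0.273 and 1.2 CPM in DMSO and 2.56, 0.329 and 3.94 CPM in SAL. SAL was clearly higher in replicates 1 and 3 (log2 differences of 1.69 and 1.53) and differed little in replicate 2 (0.15), where SAL was below 2 of the DMSO libraries. The mean went from 0.699 ± 0.47 CPM to 2.28 ± 1.82 CPM (SD, n = 3). In the fit UGT2B11 rose 3.15-fold (log2 fold change 1.66, SE 0.46, 95% interval 0.67 to 2.64, edgeR adjusted p = 0.0184). Unlike those of UGT2B15 and UGT2B17, this call was also lost in DESeq2. DESeq2 with the block gave 1.55 (adjusted p = 0.247), the edgeR fit without the block gave 1.67 with an adjusted p of 1, and UGT2B11 no longer passed the filter without replicate 1 or without replicate 3.

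UGT2B28 had 1, 0 and 3 counts in DMSO and 29, 10 and 38 counts in SAL. In CPM this was 0.124, 0 and 0.401 in DMSO and 3.71, 1.1 and 4.68 in SAL. Every SAL library was above every DMSO library, and the means were 0.175 ± 0.205 CPM and 3.16 ± 1.85 CPM (SD, n = 3). UGT2B28 was not tested, because SAL replicate 2 was below the minimum of 1.23 CPM and so only 2 libraries reached it. The summed counts of 4 and 77 gave a ratio of 17.6 after scaling for depth, with an exact interval of 6.59 to 66.1 that covers counting error only. UGT2B28 entered the test under 3 alternatives, all with the replicate block, and no fit without the block tested it. Its log2 fold change was 4.10 (SE 0.59, edgeR adjusted p = 2.06e-10) without the filter, 4.34 (SE 1.00, adjusted p = 0.000288) in DESeq2 with the block, and 3.93 (SE 0.55, edgeR adjusted p = 0.000366) without replicate 2. In the last of these it passed the filter through its SAL libraries alone, so that a rise was favored by the way it entered. Leaving out the filter also lowered the adjusted p of UGT2B15, from 0.00025 to 1.02e-09 in edgeR. The unfiltered p of UGT2B28 is therefore not comparable with the values of the main fit.

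The remaining UGT2B genes were hardly detected. UGT2B4 had 3, 1 and 3 counts in DMSO and 0, 1 and 12 in SAL, so that its higher SAL mean (0.529 ± 0.824 CPM against 0.303 ± 0.145 CPM, SD, n = 3) came from SAL replicate 3. Its ratio of 1.7 had a counting interval of 0.629 to 5.02, which includes no change. UGT2B10 had 2, 1 and 0 counts in DMSO, and UGT2B7 had 1 count in DMSO replicate 2. Both were at 0 in every SAL library. A count of 0 allows up to 3 counts, which was 0.329 to 0.41 CPM per library, so a fall of UGT2B10 or UGT2B7 was not detectable at this depth. The counting interval of the SAL to DMSO ratio reached up to 2.21 for UGT2B10 and up to 35.6 for UGT2B7. UGT2B29P, the UGT2B pseudogene among the listed symbols, had no count.

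**Figure D2:**
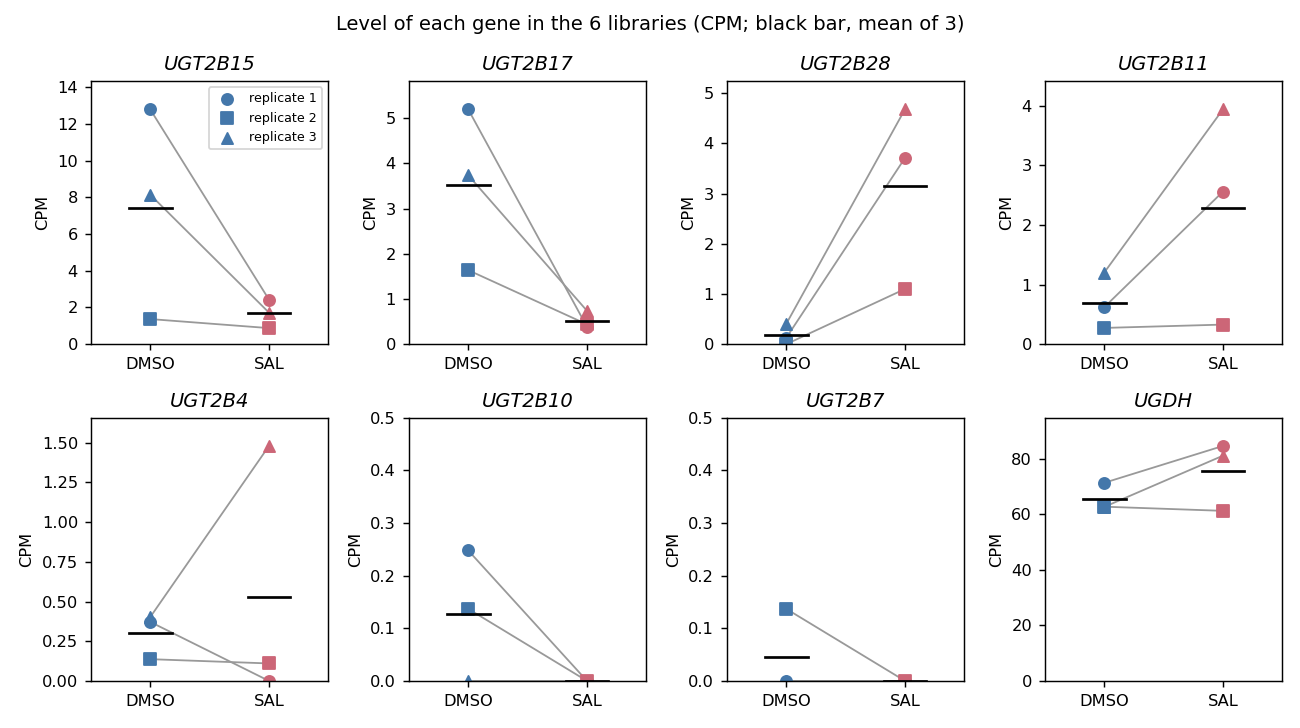
Level of each of the 8 genes in CPM, with 1 point per library, lines joining DMSO and SAL of the same replicate number and black bars at the mean of 3. UGT2B15 and UGT2B17 are lower in SAL in every pair, UGT2B28 and UGT2B11 are higher in every pair, and replicate 2 (squares) has the smallest UGT2B28 and UGT2B11 levels in SAL.

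With 3 libraries against 3, the exact two-sided permutation test of a single gene cannot give a p under 0.1, and it leaves the pairing by replicate number unused. On log2(CPM + 1), UGT2B17 and UGT2B28 reached this value (exact p = 0.1). UGT2B15 and UGT2B11 had an exact p of 0.3, UGT2B10 and UGDH of 0.4, and UGT2B4 and UGT2B7 of 1.

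Levels of different genes were compared per kb of exon. In DMSO the order was UGT2B15 (3.48 ± 2.69 CPM per kb), UGT2B17 (1.37 ± 0.696), UGT2B11 (0.296 ± 0.199), UGT2B4 (0.122 ± 0.0582), UGT2B28 (0.0942 ± 0.111), UGT2B10 (0.0465 ± 0.045) and UGT2B7 (0.0202 ± 0.0349), each as CPM per kb with the SD of 3 libraries. The libraries of UGT2B17 lay above those of UGT2B11, while every other pair of neighbors in this order overlapped. In SAL the order was UGT2B28 (1.7 ± 0.999 CPM per kb), UGT2B11 (0.966 ± 0.774), UGT2B15 (0.787 ± 0.365), UGT2B4 (0.213 ± 0.331) and UGT2B17 (0.202 ± 0.0744), and neighbors overlapped throughout, with UGT2B10 and UGT2B7 at 0. UGDH stood far above all of them, at 16.3 ± 1.24 CPM per kb in DMSO and 18.8 ± 3.13 CPM per kb in SAL.

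The makeup of the UGT2B counts differed more plainly than their sum. The 7 genes together had 156, 27 and 104 counts in DMSO and 71, 26 and 102 counts in SAL, which was 19.3, 3.69 and 13.9 CPM against 9.09, 2.85 and 12.6 CPM. The sums overlapped between groups, and replicate 2 was lowest in both. Replicate 2 also had the smallest share of reads outside annotated exons, a class that includes reads in introns. This share was 30.1% in DMSO and 24% in SAL, against 37.3% and 48.3% in the other DMSO libraries. In the other SAL libraries it was 38.6% and 43.3%, and the part of this in the low levels was not tested. UGT2B15 and UGT2B17 made up 92.9% of the UGT2B counts in DMSO replicate 1 (exact Clopper-Pearson 95% interval 87.7% to 96.4%), 81.5% in DMSO replicate 2 (61.9% to 93.7%) and 85.6% in DMSO replicate 3 (77.3% to 91.7%). In SAL the same share was 31% in replicate 1 (20.5% to 43.1%), 46.2% in replicate 2 (26.6% to 66.6%) and 19.6% in replicate 3 (12.4% to 28.6%). All 3 SAL shares lay below all 3 DMSO shares. The share of UGT2B11 and UGT2B28 was 3.85% (1.42% to 8.18%), 7.41% (0.91% to 24.3%) and 11.5% (6.11% to 19.3%) in DMSO replicates 1 to 3. It was 69% (56.9% to 79.5%), 50% (29.9% to 70.1%) and 68.6% (58.7% to 77.5%) in SAL replicates 1 to 3. These intervals cover counting error only, and no test was run on the shares, which restate the levels of the 4 genes.

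**Figure D3:**
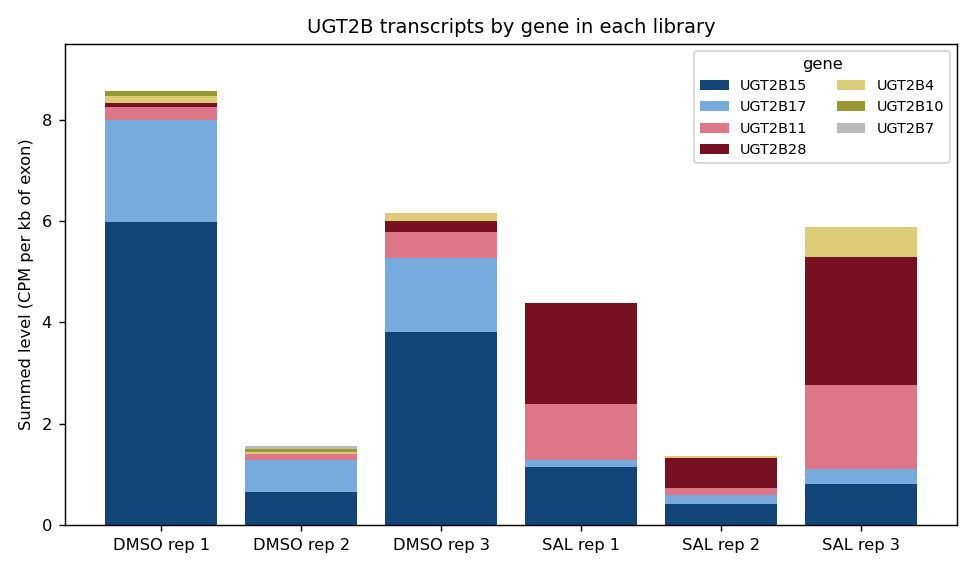
Summed level of the 7 UGT2B genes in each library in CPM per kb of exon, stacked by gene. UGT2B15 and UGT2B17 fill most of each DMSO bar and UGT2B28 and UGT2B11 most of each SAL bar, while the total in replicate 2 is low in both groups (1.56 in DMSO and 1.36 in SAL).

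Genes on both sides of the UGT2 cluster were measured as a list of 10. Of these, 3 could be tested, all on the side of UGT2B17, and none was called. UBA6, a ubiquitin-activating enzyme gene, had a log2 fold change of 0.09 (edgeR adjusted p = 0.547), YTHDC1, a reader of methylated adenosine in RNA, 0.08 (0.603), and GNRHR, the receptor of gonadotropin-releasing hormone, -0.66 (0.223). TMPRSS11E, a serine protease gene beside UGT2B17, missed the filter with 10, 0 and 6 counts in DMSO and 17, 8 and 14 counts in SAL. The sulfotransferase genes SULT1B1 and SULT1E1, the only listed genes on the side of UGT2B4, were at or close to 0. No gene on that side was therefore tested. The UGT2A genes of the cluster had no count, but exons of UGT2A1 and UGT2A2 overlap, and reads in exons of both were not counted.

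**Figure D4:**
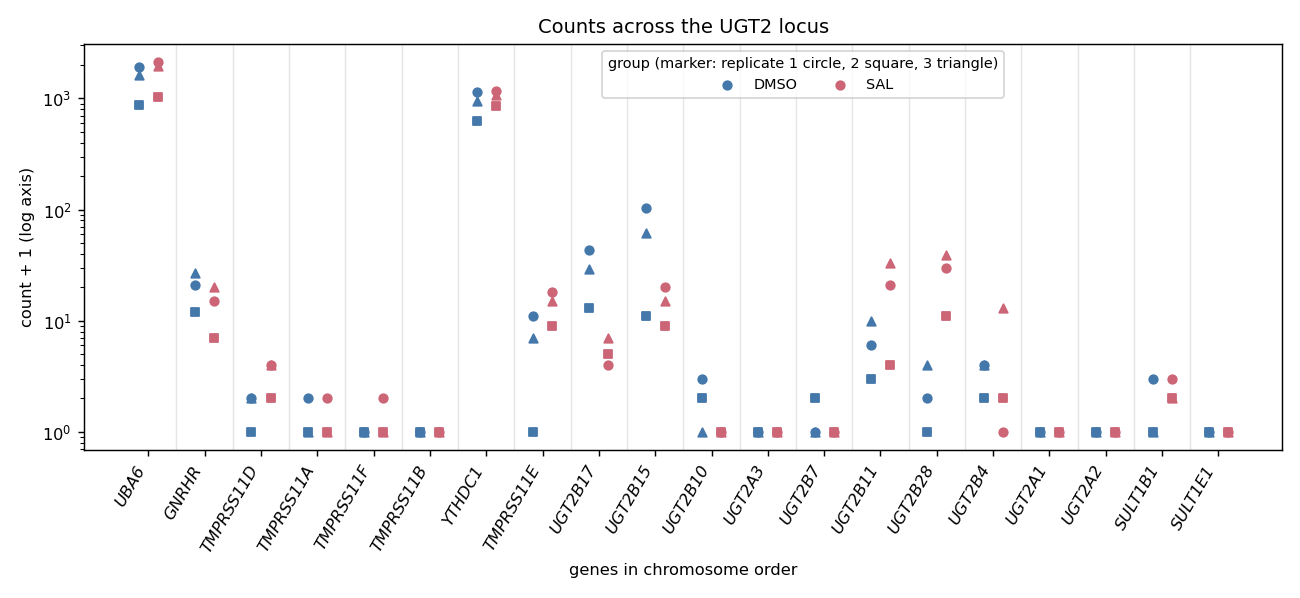
Counts plus 1 (log axis) of the genes of the UGT2 cluster and its neighbors in chromosome order, with 1 point per library, DMSO in blue and SAL in red. In SAL, UGT2B17 lies lower and UGT2B28 lies higher without overlap of the groups. UGT2B15 lies lower and UGT2B11 higher in each pair, but their groups overlap. UBA6 (877 to 2106 counts) and YTHDC1 (628 to 1156 counts) are high in all 6 libraries.

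The donor of glucuronic acid was examined through UGDH and the enzymes around it. UGDH had 576, 459 and 469 counts in DMSO and 661, 559 and 659 counts in SAL. Its level was 71.4, 62.8 and 62.7 CPM in DMSO and 84.7, 61.3 and 81.2 CPM in SAL, higher in replicates 1 and 3 and about equal in replicate 2 (log2 differences of 0.25, -0.03 and 0.37). The mean went from 65.6 ± 4.99 CPM to 75.7 ± 12.6 CPM (SD, n = 3). The log2 fold change of 0.20 (SE 0.10) was not called (edgeR adjusted p = 0.212), and its 95% interval of -0.03 to 0.42 included 0. Among the genes next to UGDH, SMIM14, a gene for a small membrane protein, rose (0.82, SE 0.12, adjusted p = 0.000127) and LIAS, the lipoic acid synthetase gene, fell (-0.68, SE 0.20, adjusted p = 0.022), a call that was lost in DESeq2 (adjusted p = 0.154) and without each replicate (0.0526 to 0.137). RPL9, a ribosomal protein gene, had a log2 fold change of -0.13 (0.499). UGDH-AS1, which shares exon bases with UGDH, had -0.43 (adjusted p = 0.422).

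Of 5 genes for the supply and use of UDP sugars, none was called, and their median log2 fold change was 0.19 beside -0.00 for all genes tested. UGP2, which makes UDP-glucose, the substrate of UGDH, had 39.6 ± 11.4 CPM in DMSO and 44.8 ± 10.2 CPM in SAL (log2 fold change 0.19, edgeR adjusted p = 0.244). PGM2, a phosphoglucomutase gene, had a log2 fold change of 0.20 (0.226) and its relative PGM1 0.03 (0.927). UXS1, which turns UDP-glucuronic acid into UDP-xylose, had 0.11 (0.536).

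Among 15 other UDP-glycosyltransferase genes, only UGT8, which makes galactosylceramide, had enough counts to be tested. UGT8 had 183, 143 and 256 counts in DMSO and 68, 84 and 104 counts in SAL, and every SAL library was below every DMSO library. It fell 2.46-fold, from 25.5 ± 7.72 CPM to 10.2 ± 2.24 CPM (SD, n = 3, log2 fold change -1.30, SE 0.15, edgeR adjusted p = 1.77e-05). The other 14 had at most 5 counts in any library. The UGT1A genes among them share their last exons, and exons of UGT2A1 and UGT2A2 overlap. Reads in exons of several genes were left uncounted as ambiguous. The low counts of the UGT1A genes, UGT2A1 and UGT2A2 therefore come only from exon parts of a single gene and do not measure their full expression.

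Of 6 genes for the export of glucuronides or their cleavage, 4 were tested, 2 rose and none fell, beside 11.5% higher and 9.37% lower of all tested genes. ABCC4, a transporter that exports organic anions including steroid conjugates, had 377, 407 and 487 CPM in DMSO and 1235, 863 and 1320 CPM in SAL, without overlap of the groups. It rose 2.66-fold (log2 fold change 1.41, SE 0.12, edgeR adjusted p = 6.04e-07). ABCC1, an exporter of glutathione and glucuronide conjugates, had 79.9, 228 and 182 CPM in DMSO and 208, 653 and 453 CPM in SAL. Its groups overlapped, since replicate 1 was low in both, but each pair rose (log2 differences of 1.38, 1.52 and 1.31), and the gene rose 2.65-fold (log2 fold change 1.40, SE 0.09, adjusted p = 3.88e-08). GUSB, the lysosomal enzyme that cleaves glucuronides, had a log2 fold change of -0.07 (0.729), and ABCG2, another exporter, 0.10 (0.858).

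Transcription factors known to act on UGT2B genes formed a list of 11, of which 5 were tested, 2 rose and 1 fell, beside 11.5% higher and 9.37% lower of all tested genes. POU2F1 (OCT1) fell from 93.5 ± 37.2 CPM to 70.6 ± 28.6 CPM (log2 fold change -0.40, SE 0.10, edgeR adjusted p = 0.00792). FOXA1, a forkhead factor that opens chromatin, rose by a log2 fold change of 0.33 (SE 0.09, adjusted p = 0.0204), and PPARA, a nuclear receptor for fatty acids, by 0.43 (SE 0.12, adjusted p = 0.018). The liver factors HNF4A and NR1H4 were at 0 in every library. The calls of FOXA1 and POU2F1 were lost without replicate 3, and that of PPARA without replicate 3 and in DESeq2 (adjusted p = 0.0792).

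**Figure D5:**
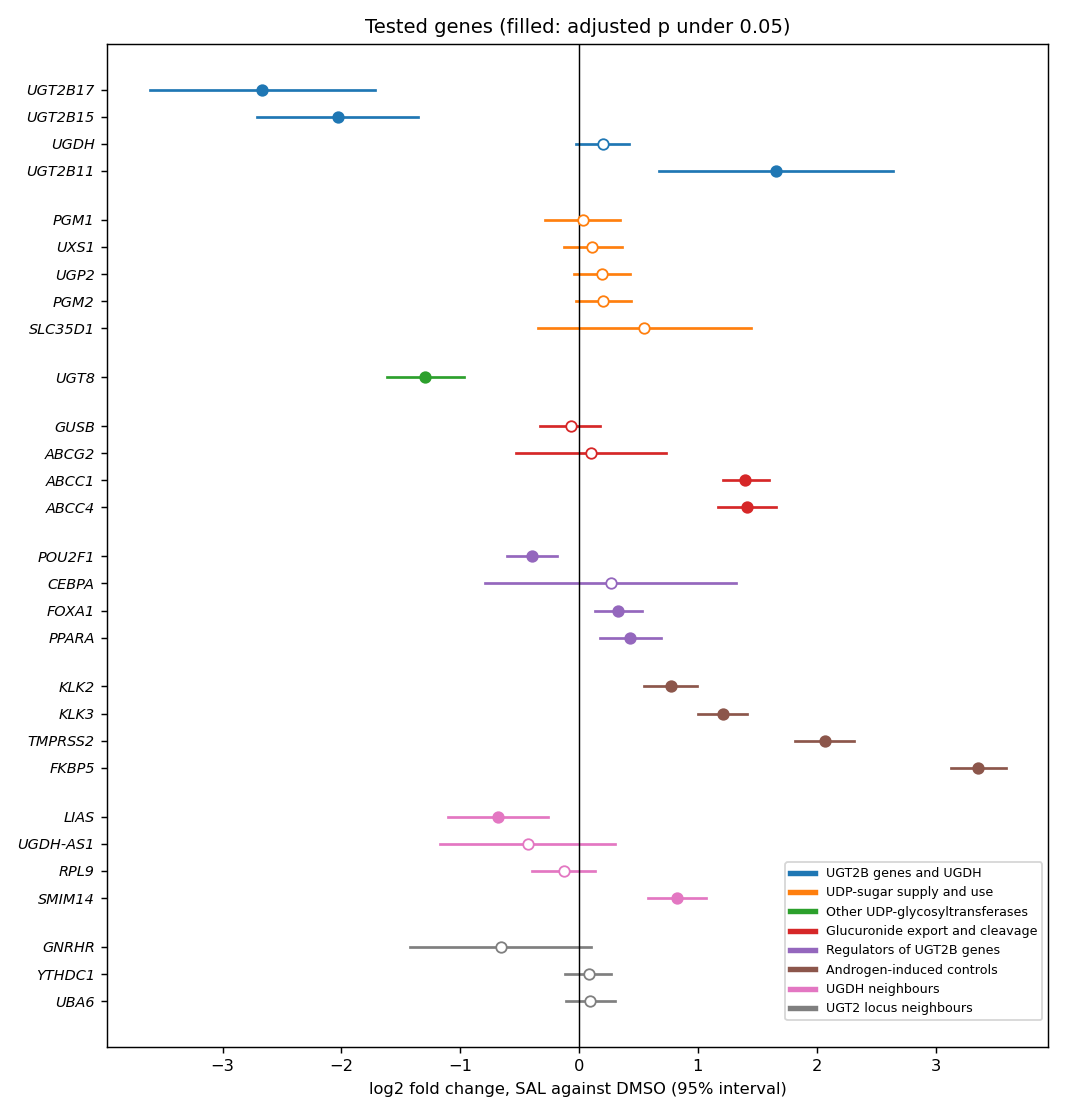
Log2 fold change of SAL against DMSO with its 95% interval for the tested genes reported from each list, with filled points at an adjusted p under 0.05 and 1 color per list. UGT2B17 (-2.67), UGT2B15 (-2.03) and UGT8 (-1.30) lie lowest, the genes of UDP sugar supply lie around 0, and ABCC1 (1.40), ABCC4 (1.41), UGT2B11 (1.66) and the androgen-induced controls lie to the right.

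Of the 5 genes whose level followed UGT2B15 most closely over the 6 libraries, 4 are reported here, namely RP11-687F6.1 (Pearson r of log2 CPM = 0.992), RP11-115D19.1 (0.991), RP11-435B5.4 (0.984) and ZNF695 (0.984). Of these 4, only ZNF695 was called (log2 fold change -0.75, edgeR adjusted p = 0.00848). In total 68 tested genes had an r above 0.95. These correlations are descriptions over 6 libraries that share their treatment and their replicate, and the low value of DMSO replicate 2 enters each of them.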

How the data were processed

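The deposited values are raw counts per gene symbol of 6 C4-2 RNA-seq libraries. The authors prepared stranded total RNA libraries, mapped only first reads to hg19 with TopHat2 2.1.0 (version from the submitters' processing notes) and counted uniquely mapped reads on gencode v19 exons with HTSeq 0.11.2 without regard to strand. LNCaP libraries were not analyzed here. From the counts, 523 rRNA symbols were removed, low genes were filtered (filterByExpr of edgeR, 10 counts, 16835 genes left), and both groups were compared with the edgeR 4.0.16 quasi-likelihood test in R 4.3.3 (TMM, robust, replicate number as a block, Benjamini-Hochberg adjustment over all tested genes). The fit was tested on data simulated from its own model, which cannot show how well that model describes these libraries. Standard errors are the log2 fold change divided by the root of F. CPM per pair use a prior count of 2.

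The numbers pair the samples. Deviations from the group means correlated at 0.89, 0.86 and 0.74 for the same number and at -0.56, -0.39 and -0.21 on average for other numbers. Because the deviations were taken from the mean of each group, the negative values follow from the positive ones and are no separate evidence. The study describes its 3 runs per condition as independent and used a paired test.

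The members and lists were chosen with earlier results of these data known. All 8 genes are named. Of each list, up to 4 genes are named, called ones first by adjusted p and then those of highest CPM, with the 5 androgen-induced controls and the 5 genes most correlated with UGT2B15 (4 of each are reported). A few further genes (KRT5, KRT8, KRT18, SULT1B1, SULT1E1, ACTA2, COL1A2, APOB, TMPRSS11E, HNF4A, NR1H4 and UGT2B29P) were named after their values were seen. Genes withheld from reporting stay in the counts over lists but are not reported singly here. Positions and transcripts are from GRCh37 with lifted GENCODE v44, a later annotation than that of the authors, and promoters from RefSeq (GRCh38.p14).

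As alternatives, the fit was run without the block, with DESeq2 1.42.0 (block kept), with DESeq2 size factors in edgeR, unfiltered, with a minimum of 10 counts per library throughout, with rRNA genes, and without each replicate number in turn.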

Additional observations from a re-analysis of the deposited data

How the results depend on the processing

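Of the alternative values of UGT2B15, UGT2B17, UGT2B11 and UGDH, 27 kept direction and side of the threshold and 4 kept only direction. Those that kept both include UGDH, which was uncalled in every setting. Settings in which a gene was no longer tested are left out, so calls lost in that way are not counted. The calls depended on the pairing. Without the replicate block edgeR called 0 of the 8 genes lower (2 at an unadjusted p under 0.05, and the log2 fold changes were -2.15 for UGT2B15, adjusted p = 0.841, and -2.73 for UGT2B17, adjusted p = 0.231) and 0 higher (0 at an unadjusted p under 0.05, and 1.67 for UGT2B11, adjusted p = 1). Of the companion genes (UDP sugars, UGT8, export, regulators, controls and neighbors), it then called 1 higher (FKBP5, against 10 with the block) and 0 lower (against 3, with 1 at an unadjusted p under 0.05), and over all genes 18 higher and 3 lower (654 at an unadjusted p under 0.05). DESeq2 with the block gave 1.55 for UGT2B11 (adjusted p = 0.247) and, over all genes, 1346 higher and 842 lower. Without the filter 2 of the 8 genes were higher (UGT2B28 added). With at least 10 counts in every library 0 were higher and 0 lower, because UGDH alone was still tested. Leaving out 1 replicate number gave 0 to 2 of the 8 genes higher, 1 to 2 companion genes lower, and 750 to 2443 higher and 483 to 1955 lower genes in all. UGT2B15 then ranged from -2.33 to -1.73, UGT2B17 from -2.96 to -2.14 and UGDH from 0.11 to 0.29, and UGT2B11, tested only without replicate 2, was 1.81. Of the values of the tested companion genes, apart from those not reported here, 200 kept direction and side, 19 lost the call and 2 changed sign: PGM1 (0.03) ranged from -0.15 to 0.19 with a replicate left out (-0.03 without replicate 2). The cause of these changes was not tested, except where fewer genes or samples entered. Depth limits UGT2B4, UGT2B7 and UGT2B10, whose counts were mostly at or under 3.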
